A study of Rattus norvegicus with 82 samples.

Results

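Cyclic nucleotide phosphodiesterases are the enzymes that hydrolyse cAMP and cGMP, and in heart muscle they set how long and how far these second messengers act. Adenylyl cyclases make cAMP downstream of β-adrenergic receptors, and cAMP acts through protein kinase A on calcium handling and contraction. Guanylyl cyclases make cGMP in response to nitric oxide and natriuretic peptides, and several phosphodiesterases are themselves switched on or off by cGMP, so that the pathways meet at these enzymes. The family members described here were the calcium/calmodulin-activated Pde1a and Pde1c, the cGMP-stimulated Pde2a, the cGMP-inhibited Pde3a and Pde3b, the cAMP-specific and rolipram-sensitive Pde4a, Pde4b and Pde4d, the cGMP-specific Pde5a (the target of sildenafil), and the cAMP-specific Pde8a. They were picked by gene symbol, with earlier results of these data known, and all 10 of 10 were found among the 17337 genes of the table. All 10 passed the filter on low counts that left 11954 genes for testing, and no member was at 0 counts in any library.

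Each of 41 F1 rats, which the labels give as a Wistar Kyoto by Lewis cross and the study's methods as a Wistar by Lewis hybrid, gave a right ventricular (RV) and a left ventricular (LV) library of rRNA-depleted cardiomyocyte RNA, which made 82 libraries of females and males. Banding of the pulmonary artery (PAB) put the load on the RV, and banding of the aorta (AOB) put it on the LV. Control animals had a sham operation. Hearts were taken in compensated hypertrophy (H) or in failure (F). The labels give 11 weeks of age and 7 weeks of treatment for Sham-H (n = 7 animals), PAB-H (n = 6) and AOB-H (n = 6), 31 and 26 weeks for Sham-F (n = 9) and AOB-F (n = 7), and 28 and 22 weeks for PAB-F (n = 6). PAB-F animals were thus younger than their Sham-F controls, and the ages in the labels and in the study's methods differ, so the durations given here are those of the labels. The clip did not constrict at surgery, and load arose as the animals grew. Cardiomyocytes were pelleted after collagenase perfusion and mincing, with no sort, so other cells could remain in the pellet.

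Counts per library ranged from 6675287 to 19665439. The 9 cardiomyocyte marker genes held 4.82% to 12.5% of the counts of a library, against 0.0153% to 0.303% for 10 fibroblast markers and 0.0654% to 0.542% for 8 endothelial markers. Of the defining markers, the collagen gene Col1a2 had at most 5 counts in any library and was not tested, and the mural marker Cnn1 was at 0 in at least 1 library. In 6 libraries the fibroblast or the endothelial share was over 2 times the median of the group: RV PAB-H replicates 1 and 2, RV PAB-F replicate 1, RV Sham-F replicate 3, and replicate 6 of both RV AOB-H and LV AOB-H, which came from the same animal. Results of the 10 members that rest on these libraries are given with and without them, a choice made after seeing the data. In bulk RNA, fewer cells of a type and less RNA per cell cannot be told apart.

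Levels of different genes were compared per gene length, in the authors' FPKM. Pde3a, which hydrolyses cAMP and is inhibited by cGMP, was the highest of the 10 in each of the 12 group means, and its mean over 82 libraries was 118 FPKM. It made up 47.2% of the summed FPKM of the 10 members on average, with a range of 34.2% to 56.3% over the libraries. Next came Pde4a with a mean of 41.4 FPKM, Pde2a with 26.4, Pde4b with 22.0, Pde4d with 20.9 and Pde8a with 13.3 FPKM. The remaining members were low: Pde1a had a mean of 1.89 FPKM, Pde5a 1.86, Pde3b 1.11 and Pde1c 1.02. Their raw counts were accordingly small, with medians of 45 counts for Pde1a, 42.5 for Pde1c, 59 for Pde3b and 81 for Pde5a, against 5520 for Pde3a.

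The order of the middle members was not the same in every group. In RV Sham-H the FPKM were 146 ± 8.22 for Pde3a (SD, n = 7), 48.3 ± 3.31 for Pde4a, 27.9 ± 2.40 for Pde4b, 26.5 ± 1.90 for Pde4d, 19.5 ± 1.51 for Pde2a and 10.1 ± 0.698 for Pde8a. Pde4b and Pde4d overlapped there, whereas every RV Sham-H value of Pde2a, at most 21.5 FPKM, was below every value of Pde4d, at least 22.7 FPKM. In LV Sham-F, Pde2a had 37.7 ± 4.42 FPKM (SD, n = 9) after Pde3a with 97.4 ± 19.4 and Pde4a with 47.5 ± 10.8, whose range it overlapped. There Pde8a with 15.4 ± 1.71, Pde4d with 13.97 ± 3.02 and Pde4b with 13.03 ± 2.36 FPKM overlapped with each other. In LV Sham-H, the same ventricle at the younger stage, Pde2a had 28.4 ± 4.74, Pde4d 20.9 ± 5.66, Pde4b 19.5 ± 6.00 and Pde8a 13.2 ± 1.95 FPKM (SD, n = 7), so Pde2a stood above Pde4d and Pde4b in the mean there too, while Pde8a stood below them. At the low end, the ranges of Pde1a and Pde5a in RV Sham-H, 1.16 to 2.12 and 1.19 to 1.97 FPKM, overlapped, as did those of Pde3b and Pde1c.

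The summed FPKM of the 10 members was 283 ± 9.70 in RV Sham-H, 282 ± 26.4 in RV Sham-F and 232 ± 26.2 in RV PAB-F. In the LV it was 248 ± 32.8 in Sham-H, 230.4 ± 23.5 in Sham-F and 215 ± 27.6 in AOB-F. These sums follow Pde3a, and no test was run on them.

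**Figure D1:**
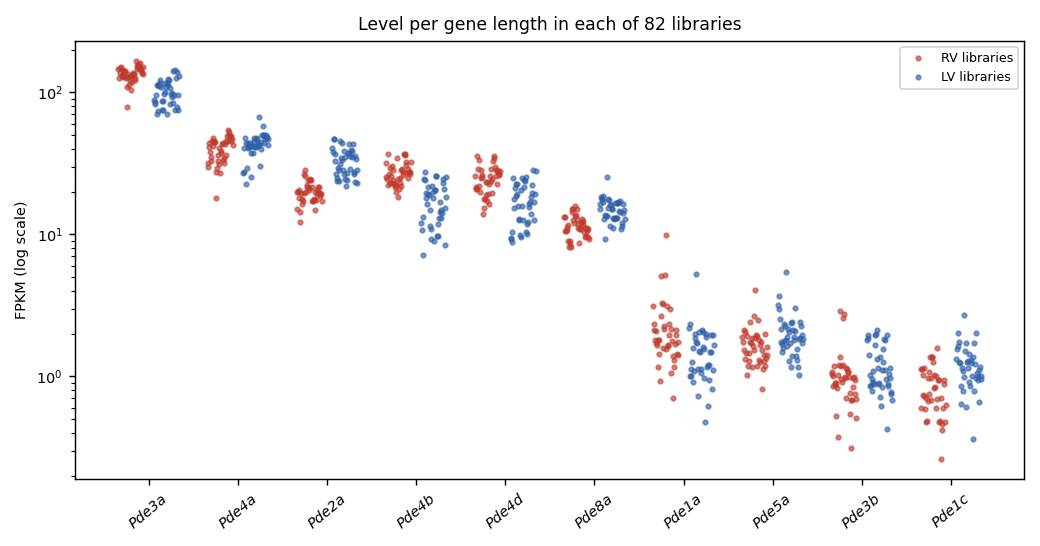
FPKM (log axis) of each phosphodiesterase gene in every RV library (red) and LV library (blue), genes ordered by their mean. Pde3a, with a mean of 118 FPKM, lies above the other 9, and Pde1a, Pde5a, Pde3b and Pde1c have means from 1.02 to 1.89 FPKM.

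The difference between the ventricles was the widest pattern in the family. Within animals, RV was above LV in 39 of 41 animals for Pde3a, 39 for Pde4b and 35 for Pde4d, and below LV in 39 of 41 for Pde2a, 35 for Pde8a and 32 for Pde1c. Pde1a was higher in the RV of 28 animals, Pde3b and Pde5a were each lower in 28, and Pde4a was lower in 24. Pde3a, Pde4b and Pde4d thus lay on the RV side and Pde2a, Pde8a and Pde1c on the LV side, with cAMP-specific members on both sides.

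In sham hearts at the H stage, 4 of 10 members differed between RV and LV at an adjusted p under 0.05 (edgeR's quasi-likelihood test on the counts, Benjamini-Hochberg adjusted over all genes tested), beside 21% of all genes. Values of single genes are given below as normalized counts, which are raw counts scaled to a common library size. Pde2a had RV Sham-H values from 1021 to 1274 with a median of 1142, and LV Sham-H values from 1373 to 2110 with a median of 1654. The groups did not overlap, and the log2 difference of RV against LV was -0.55 (SE 0.12, edgeR adjusted p = 0.00105). Pde8a, a cAMP-specific enzyme of high affinity, had RV values from 323 to 382 and LV values from 386 to 565, again with no overlap (log2 -0.40, SE 0.12, edgeR adjusted p = 0.0152).

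On the RV side at the H stage, Pde3a had RV values from 6278 to 7426 with a median of 6709, and LV values from 3519 to 6763 with a median of 5963. The LV values fell apart: replicates 4, 5 and 6 had 3671, 3519 and 4422 normalized counts and the other 4 LV libraries at least 5963. The log2 difference was 0.36 (SE 0.12, edgeR adjusted p = 0.0274), and the call was lost in a fit to these groups alone (edgeR adjusted p = 0.0829). Pde4b had RV values from 1055 to 1377 and LV values from 358 to 1070, and 6 of 7 RV libraries exceeded the highest LV library (log2 0.51, SE 0.19, edgeR adjusted p = 0.0448). This call was lost in 9 of 14 fits that left out 1 library. The same LV replicates 4, 5 and 6 were the lowest for Pde4b, at 358, 650 and 767 normalized counts. Pde4d was 1176 ± 81.2 in RV and 934 ± 255 in LV (log2 0.33, SE 0.17, edgeR adjusted p = 0.153).

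With the animal as a block, which the labels support because both libraries carry the same animal, 6 members passed at the H stage, beside 32.5% of all genes in that fit: Pde4d had a log2 difference of 0.38 (edgeR adjusted p = 0.0125) and Pde1c of -0.66 (edgeR adjusted p = 0.0287) in addition to the 4 above.

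In the older sham hearts, Sham-F, 7 of 10 members differed between RV and LV, beside 74.3% of all genes, so the members' count was close to the background. Pde4b had RV values from 1104 to 1549 with a median of 1279, and LV values from 400.0 to 706 with a median of 556. Its RV mean was 2.43 times the LV mean by the fit (log2 1.28, SE 0.17, edgeR adjusted p = 4.89e-10), with no overlap. Pde4d ranged from 878 to 1565 in RV and from 441 to 818 in LV, also with no overlap (log2 1.04, SE 0.15, edgeR adjusted p = 1.02e-08).

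Pde2a showed the opposite in Sham-F. Its RV values lay between 872 and 1202 with a median of 1033, and its LV values between 1686 and 2551 with a median of 2196. The groups did not overlap, and the RV level was 0.479 times the LV level (log2 -1.06, SE 0.11, edgeR adjusted p = 7.05e-14). Pde3a was 6722 ± 638 in RV and 4476 ± 887 in LV (log2 0.59, SE 0.11, edgeR adjusted p = 1.35e-06), and in 6 of 9 RV libraries it exceeded the highest LV library. Pde8a was lower in RV (log2 -0.40, SE 0.11, edgeR adjusted p = 0.000585), where 8 of 9 RV libraries were below all LV libraries. Of the low members, Pde3b was 47.6 ± 16.8 in RV and 77.03 ± 30.3 in LV (log2 -0.69, SE 0.25, edgeR adjusted p = 0.00955), and Pde1c was 33.9 ± 17.03 and 49.9 ± 21.1 (log2 -0.55, SE 0.24, edgeR adjusted p = 0.033). The call of Pde1c was lost in 9 of 18 fits that left out 1 library.

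**Figure D2:**
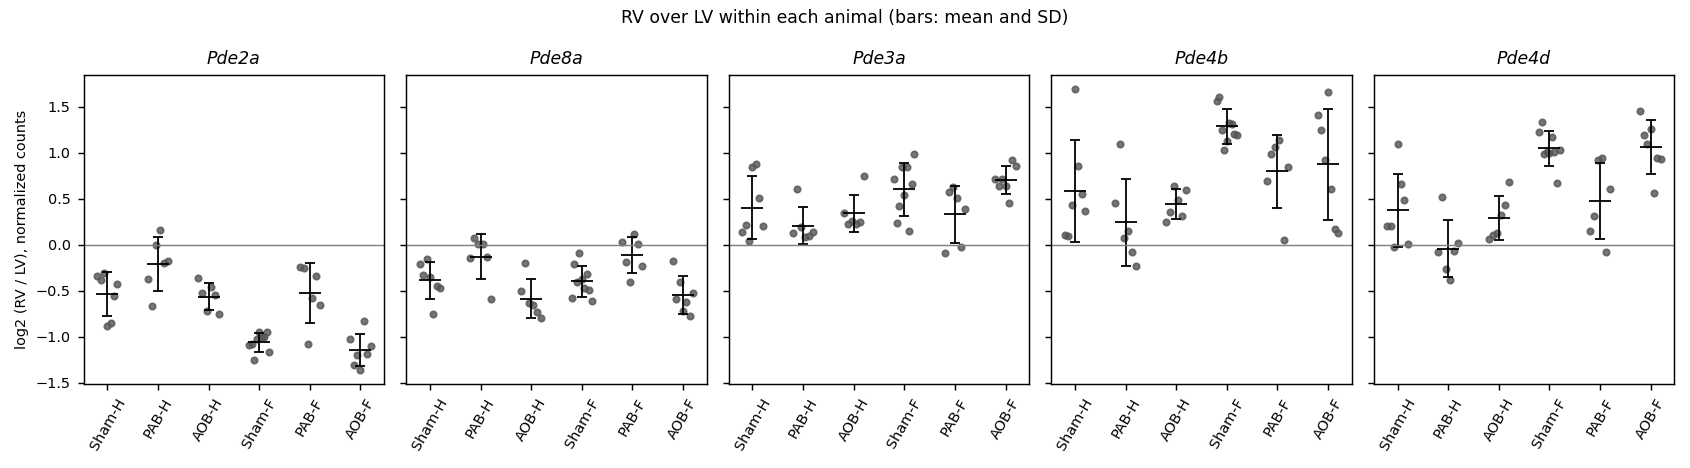
The log2 ratio of RV to LV normalized counts in each animal (points) with mean and SD (bars) by condition, for Pde2a, Pde8a, Pde3a, Pde4b and Pde4d. In Sham-F all 9 animals lie between -1.26 and -0.95 for Pde2a, and between 1.03 and 1.61 for Pde4b.

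The ventricle difference of Pde2a, Pde4b and Pde4d was wider in Sham-F than in Sham-H. The difference of the differences was -0.52 for Pde2a (SE 0.16, edgeR adjusted p = 0.00809), 0.77 for Pde4b (SE 0.25, edgeR adjusted p = 0.013) and 0.71 for Pde4d (SE 0.23, edgeR adjusted p = 0.0116). These were 3 of 10 members, beside 41.6% of all genes. Within animals, the Pde2a log2 ratio was -0.53 ± 0.24 in Sham-H (SD, n = 7) and -1.06 ± 0.10 in Sham-F (SD, n = 9), and that of Pde4d was 0.38 ± 0.40 and 1.05 ± 0.19.

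Between the stages the called differences were in the LV. Between LV Sham-F and LV Sham-H, 3 of 10 members differed, beside 57.4% of all genes: Pde2a was higher in Sham-F (log2 0.39, SE 0.11, edgeR adjusted p = 0.00279), and Pde4b (log2 -0.60, SE 0.18, edgeR adjusted p = 0.00351) and Pde4d (log2 -0.60, SE 0.16, edgeR adjusted p = 0.00132) were lower. In the RV, 0 of 10 passed, beside 0.0502% of all genes, and 0 had an unadjusted p under 0.05 in edgeR and 0 passed in DESeq2. The RV log2 differences of Sham-F from Sham-H were -0.13 for Pde2a, 0.17 for Pde4b and 0.11 for Pde4d. Marker genes moved between these LV groups as well: 5 of 8 mural markers (median log2 0.73), 5 of 8 macrophage markers (0.75), 4 of 9 fibroblast markers (0.52) and 3 of 8 endothelial markers (0.33) were higher in LV Sham-F, with 1 endothelial marker lower. Their part in the change of Pde2a, Pde4b and Pde4d was not tested. Age, treatment time and any other difference between the H and F cohorts cannot be told apart here.

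Marker genes of other cells differed between the ventricles as well. The summed share of 8 endothelial markers was 0.0654% to 0.111% of counts in RV Sham-F and 0.198% to 0.361% in LV Sham-F, and 6 of 8 were lower in RV and 1 higher at an adjusted p under 0.05. Of the other lists, 6 of 9 fibroblast, 5 of 8 mural and 4 of 8 macrophage markers were lower in RV Sham-F and none higher. In RV Sham-H the share was 0.0770% to 0.111% and in LV Sham-H 0.111% to 0.296%, with 5 of 8 lower in RV. LV Sham-H replicates 4 and 5, which had low Pde3a, Pde4b and Pde4d, held the highest endothelial shares of that group, 0.296% and 0.222%, while replicate 6 was at 0.151%, below the group's median of 0.164%. Over 82 libraries, with group means taken out, Pde2a went with the endothelial marker score at r = 0.67, Pde4d at r = -0.54, Pde4b at r = -0.39 and Pde3a at r = -0.37. Pde8a, Pde3b and Pde1c, also called in Sham-F, went with it at r = 0.56, 0.62 and 0.43. With the cardiomyocyte score, r was -0.59 for Pde8a and 0.66 for Pde3a. With the mural score, r was 0.50 for Pde2a, -0.61 for Pde4d, -0.53 for Pde4b and -0.45 for Pde3a. Pde3a went against the macrophage score at r = -0.48 and the fibroblast score at r = -0.47. These r describe libraries that share their preparation and depth. The part of the markers in the ventricle differences was not tested. With the 6 high-marker libraries left out, the 7 members called in Sham-F were called again, beside 75% of all genes, with log2 differences of -1.07 for Pde2a, 1.29 for Pde4b and 1.09 for Pde4d. Of the libraries left out, only RV Sham-F replicate 3 was part of this comparison, and every LV Sham-F library stayed. The marker difference between the ventricles was thus still present, and this fit cannot show its part in the calls.

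Pde4b and Pde4d moved together, with r = 0.82 over the 82 libraries with group means taken out and r = 0.89 with them kept in, while Pde2a moved against them at r = -0.43 with Pde4b and r = -0.48 with Pde4d. Because these genes shared or opposed a pattern, 250 bases before an annotated start of each are shown, from RefSeq on GRCr8, plus strand, in lower case with TGACG (the core of the cAMP response element) and GGGCGG (the GC box) in capitals on either strand. The starts shown were picked after the matches were seen, and the counts of reads were made by the authors on another build, Rnor6.0.
Pde4b, chr5:122028706-122028955: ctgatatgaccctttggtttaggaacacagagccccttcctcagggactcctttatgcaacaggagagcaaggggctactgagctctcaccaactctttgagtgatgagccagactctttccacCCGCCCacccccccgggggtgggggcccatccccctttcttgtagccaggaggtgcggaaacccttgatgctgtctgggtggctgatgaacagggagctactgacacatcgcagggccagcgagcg
Pde4d, chr2:42592499-42592748: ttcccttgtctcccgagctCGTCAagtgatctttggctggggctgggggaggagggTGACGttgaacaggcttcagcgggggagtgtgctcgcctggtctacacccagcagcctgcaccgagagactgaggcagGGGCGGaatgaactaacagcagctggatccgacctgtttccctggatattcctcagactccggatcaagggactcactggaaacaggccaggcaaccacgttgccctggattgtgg
Pde2a, chr1:165265759-165266008: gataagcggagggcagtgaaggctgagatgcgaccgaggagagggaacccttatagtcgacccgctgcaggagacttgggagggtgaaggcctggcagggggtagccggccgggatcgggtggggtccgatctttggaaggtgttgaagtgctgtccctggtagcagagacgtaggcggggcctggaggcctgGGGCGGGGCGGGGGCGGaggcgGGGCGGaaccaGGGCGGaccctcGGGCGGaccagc

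The Pde4d sequence held 2 TGACG matches and 1 GGGCGG match, the Pde4b sequence 0 and 1, and the Pde2a sequence 0 and 6, of which neighbouring matches overlap. RefSeq windows of 250 bases before to 50 after a start were matched by NCBI gene number for 9 members (18 windows, none for Pde3b). TGACG stood in 5 of the 18, against 21.2% of 33469 windows of all genes, and GGGCGG in 11 of the 18, against 33.1%. The full element TGACGTCA stood in 0 of the 18, against 1.83% of all windows. A match is a run of letters only. More than 1 start is annotated for Pde2a, Pde4a, Pde4b and Pde4d, whose reads were counted as 1 gene each, so isoforms were not told apart. Matches differed between the starts of a gene: the Pde2a window not shown held 0 GGGCGG matches, and the Pde4d windows not shown held 0 or 1.

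In banded hearts the ventricles were compared in the same way. At failure after AOB, 7 of 10 members differed between RV and LV, beside 67.1% of all genes, among them Pde2a at 1017 ± 194 in RV and 2245 ± 425 in LV (log2 -1.14, SE 0.12, edgeR adjusted p = 9.62e-12) and Pde4d at 1192 ± 272 and 599 ± 259 (log2 0.99, SE 0.18, edgeR adjusted p = 1.17e-06). The others were Pde3a (log2 0.70), Pde4b (0.74), Pde1c (-0.70), Pde8a (-0.54) and Pde5a (-0.53). The call of Pde5a was lost in 7 of 14 fits that left out 1 library, and with the animal as a block, where 70.6% of all genes were called, Pde1a also passed (log2 0.67, edgeR adjusted p = 0.0447).

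At failure after PAB, 6 of 10 differed, beside 61.1% of all genes. Pde1a was higher in RV, 83.8 ± 36.1 against 39.6 ± 12.4 (log2 1.09, SE 0.34, edgeR adjusted p = 0.00498), and Pde4a was lower, 1146 ± 243 against 1603 ± 174 with no overlap (log2 -0.48, SE 0.14, edgeR adjusted p = 0.00237). Pde2a differed by -0.53 there, Pde4b by 0.75, Pde4d by 0.45 and Pde3a by 0.34 on the log2 scale. The call of Pde4d was lost in 6 of 12 fits without 1 library. At the H stage after AOB, 3 of 10 were lower in RV, beside 7.98% of all genes called and 6.41% called lower: Pde2a (log2 -0.58), Pde8a (-0.62) and Pde5a (-0.79). Without LV AOB-H replicate 6, the highest library of its group for all of these, none of the 3 passed, with log2 differences of -0.42, -0.40 and -0.42. With all 6 high-marker libraries left out, Pde2a and Pde8a passed and Pde5a did not, beside 5.18% of all genes. The animal block, with 13.7% of all genes called, added Pde1c (log2 -0.77, edgeR adjusted p = 0.0371) and Pde3a (log2 0.34, edgeR adjusted p = 0.0285), the latter with every RV library above every LV library. At the H stage after PAB, 0 of 10 passed, beside 0.125% of all genes. There, 2 members had an unadjusted p under 0.05 in edgeR and 0 passed in DESeq2. The largest log2 difference was that of Pde1a, 1.31 (SE 0.34, edgeR adjusted p = 0.088).

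**Figure D3:**
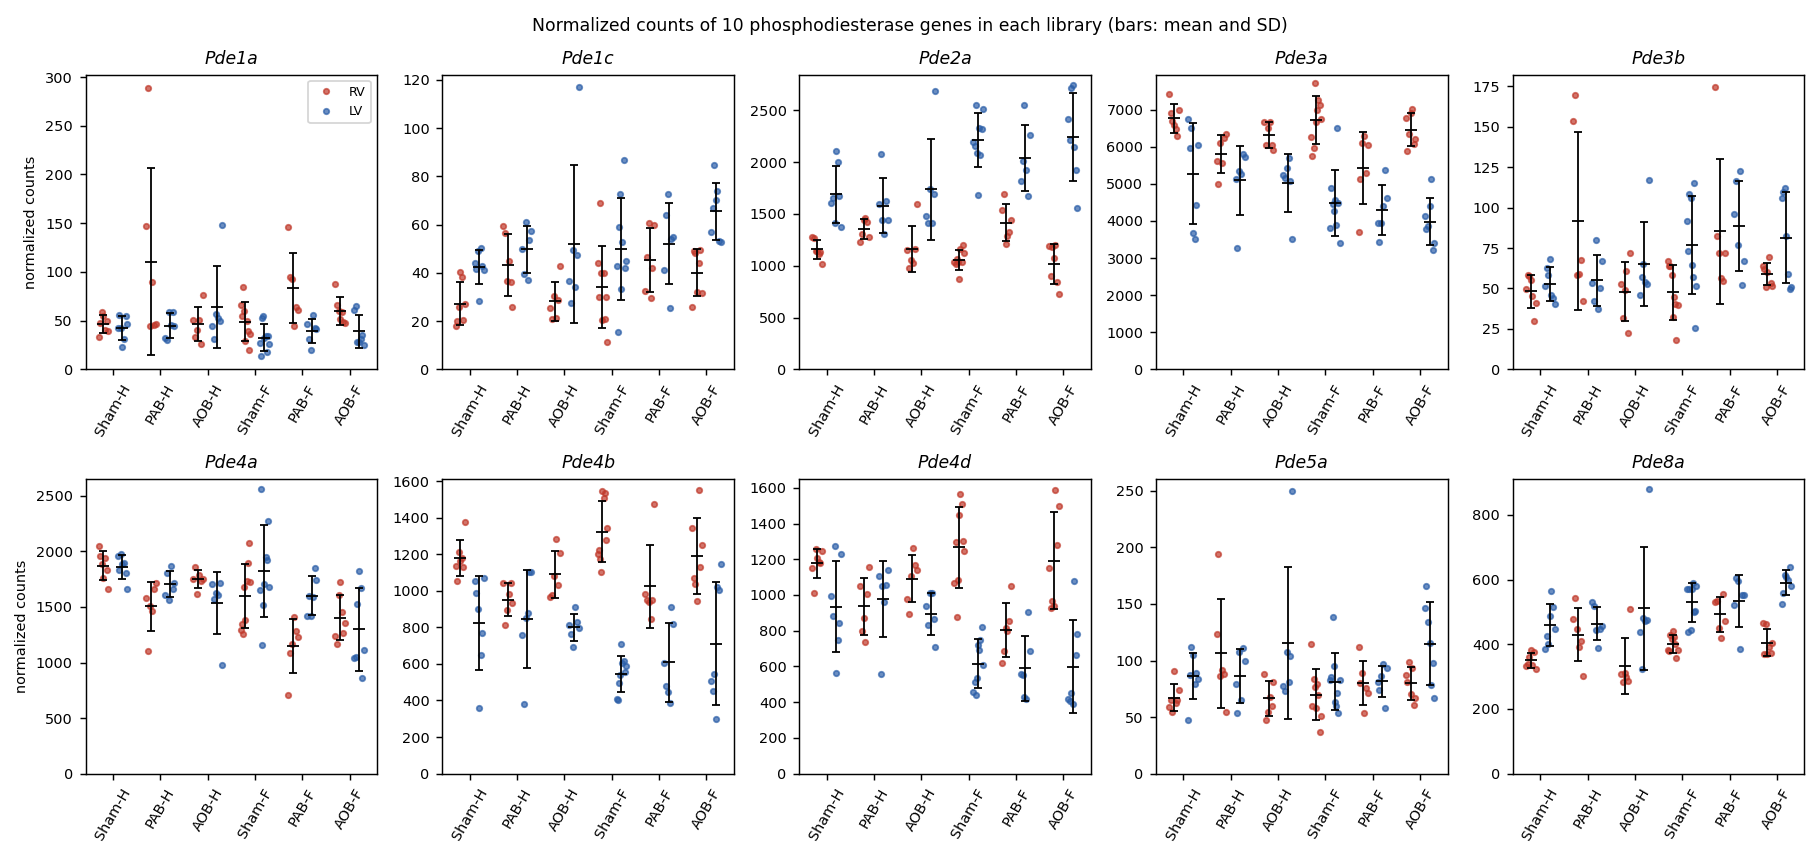
Normalized counts of each gene in every RV (red) and LV (blue) library of the 6 conditions, with mean and SD. By the group means Pde2a lies lower in RV in each condition and Pde3a and Pde4b lie higher, as does Pde4d except in PAB-H (936 in RV and 978 in LV), and the highest LV AOB-H library of Pde1a, Pde2a, Pde3b, Pde5a and Pde8a is the same one, replicate 6.

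In the main fit, members called in the loaded RV were Pde1a and Pde3b, both higher, in hypertrophy. In failure they were Pde2a and Pde3b, both higher, and Pde4a and Pde4d, both lower. None of these calls in hypertrophy held without RV PAB-H replicate 2, and none in failure without RV PAB-F replicate 1, both high-marker libraries. In RV PAB-H, 2 of 10 members differed from RV Sham-H, beside 4.5% of all genes. Pde1a, which links calcium to the breakdown of cyclic nucleotides, had 147, 289, 44.8, 89.6, 45.9 and 46.9 normalized counts in the 6 RV PAB-H libraries, against 32.7 to 59.2 with a median of 47.7 in the 7 RV Sham-H libraries. The high libraries were replicates 1, 2 and 4, and the other 3 lay within the sham range. By the labels all 3 high libraries were of males, as was replicate 3, and the 2 of females had 45.9 and 46.9. The log2 fold change was 1.26 (SE 0.33, edgeR adjusted p = 0.0184), and with sex as a covariate it was 1.14 (edgeR adjusted p = 0.0379).

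Pde3b had 153, 170, 58.4, 59.1, 67.4 and 41.98 normalized counts in RV PAB-H, against 29.99 to 58.2 with a median of 49.6 in RV Sham-H. Replicates 1 and 2 stood far above the rest and 5 of 6 were above all sham libraries, of which replicates 3 and 4 exceeded the highest sham library, at 58.2, only narrowly. The log2 fold change was 0.93 (SE 0.29, edgeR adjusted p = 0.0441), and the call was lost in 7 of 8 alternative settings and in 8 of 13 fits without 1 library.

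Replicates 1 and 2 were also the libraries with the highest fibroblast marker shares of RV PAB-H, 0.145% and 0.303%, against 0.0360% to 0.0531% in the other 4 and 0.0242% to 0.0465% in RV Sham-H. Replicate 2 also held the highest endothelial, mural and macrophage shares of its group, 0.232%, 0.138% and 0.0180%. All 9 tested fibroblast markers were higher in RV PAB-H than in RV Sham-H, with a median log2 fold change of 1.37. Of the other lists, 1 of 8 endothelial and 1 of 8 mural markers were higher. The part of these markers in the result was not tested. With the high-marker libraries left out, 0 of 10 members passed, beside 0.465% of all genes, and the log2 fold change was 0.29 for Pde1a (edgeR adjusted p = 0.878) and 0.23 for Pde3b (edgeR adjusted p = 0.911). Leaving out replicate 2 alone lost both calls, with a log2 fold change of 0.70 for Pde1a.

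**Figure D4:**
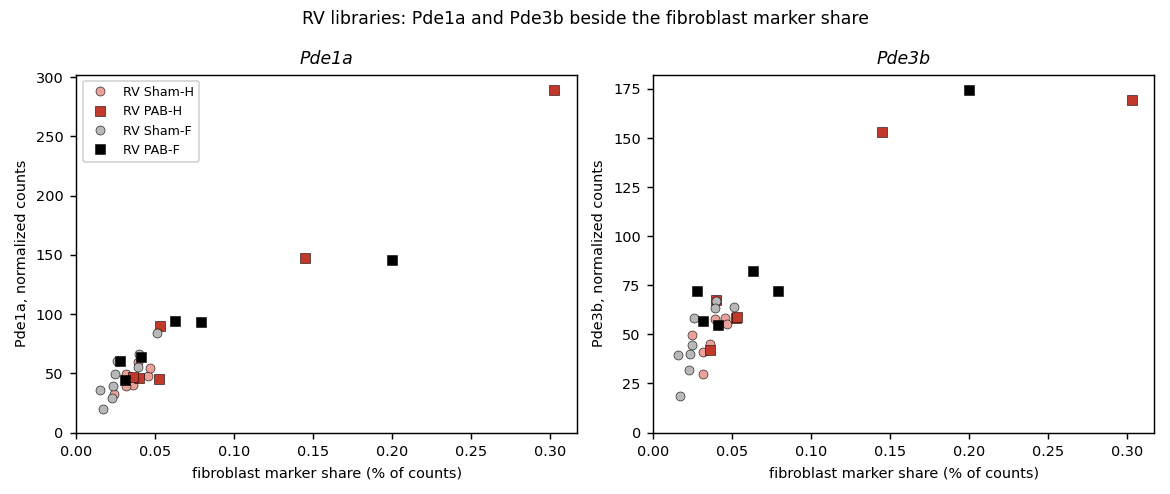
Normalized counts of Pde1a (left) and Pde3b (right) in each RV library of the sham and PAB groups against the share of its counts held by 10 fibroblast markers. The RV PAB-H libraries at 0.145% and 0.303% have 147 and 289 counts of Pde1a, and the RV PAB-F library at 0.1997% has 146.

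The other members of RV PAB-H did not pass. Pde5a was 106 ± 48.3 against 67.1 ± 11.98 (log2 0.67, SE 0.24, edgeR adjusted p = 0.0769) and Pde1c 43.2 ± 12.96 against 27.1 ± 8.91 (log2 0.68, SE 0.28, edgeR adjusted p = 0.143). Pde4b had RV PAB-H values from 811 to 1044, all below the RV Sham-H values of 1055 to 1377 (log2 -0.31, SE 0.20, edgeR adjusted p = 0.398). A fit to these groups alone, in which the spread is not shared with the other groups, called Pde4b (edgeR adjusted p = 0.0171). It also called Pde4a, Pde4d, Pde3a and Pde2a, with log2 fold changes of -0.31, -0.33, -0.22 and 0.23, and Pde1a, but not Pde3b, so that 6 of 10 were called there, beside 14.9% of all genes. Between these groups the replicate number is shared by different animals and goes in part with sex, as males are numbered first. With it as a block, Pde1a (edgeR adjusted p = 0.156) and Pde3b (edgeR adjusted p = 0.0792) did not pass, and Pde4a, Pde4b and Pde4d did, beside 11.4% of all genes.

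In RV PAB-F, 4 of 10 members differed from RV Sham-F, beside 11.1% of all genes. Pde4d had 621, 685, 814, 798, 855 and 1050 normalized counts in RV PAB-F, against 878 to 1565 with a median of 1295 in RV Sham-F. All but 1 of the failing libraries lay below every sham library, and the level was 0.635 times that of sham (log2 -0.65, SE 0.17, edgeR adjusted p = 0.00874). Pde4a had 703, 1085, 1168, 1412, 1280 and 1227 normalized counts, against 1254 to 2074 with a median of 1681, with 4 of 6 below all sham libraries (log2 -0.48, SE 0.13, edgeR adjusted p = 0.0104). Both are cAMP-specific enzymes of the same subfamily, and Pde4b of that subfamily was 1024 ± 226 against 1324 ± 168 (log2 -0.37, SE 0.19, edgeR adjusted p = 0.187), with 5 of 6 failing libraries below all sham libraries and replicate 6 at 1475.

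Pde2a had 1539, 1693, 1209, 1290, 1323 and 1438 normalized counts in RV PAB-F, all above the RV Sham-F range of 872 to 1202 (log2 0.42, SE 0.12, edgeR adjusted p = 0.0134). Pde3b had 175, 82.5, 72.2, 56.8, 54.7 and 72.1 normalized counts, against 18.4 to 67.2 with a median of 44.6 in sham (log2 0.83, SE 0.27, edgeR adjusted p = 0.0339). Replicate 1 was far above the rest, 4 of 6 libraries were above all sham libraries, and 6 of 15 fits without 1 library lost the call. Pde8a was 493 ± 54.5 against 401 ± 27.7 (log2 0.30, SE 0.12, edgeR adjusted p = 0.0848), Pde1a 83.8 ± 36.1 against 48.7 ± 20.1 (log2 0.77, SE 0.31, edgeR adjusted p = 0.0861), and Pde3a 5429 ± 963 against 6722 ± 638 (log2 -0.31, SE 0.12, edgeR adjusted p = 0.0798).

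RV PAB-F replicate 1 was the lowest library of its group for Pde3a, Pde4a and Pde4d and the highest for Pde1a and Pde3b, and held the highest fibroblast share, 0.1997% against 0.0277% to 0.0790% in the other 5. It also held the highest endothelial, mural and macrophage shares of its group, 0.205%, 0.0852% and 0.0183%. Without it, 0 of 10 members passed: the log2 fold change was -0.37 for Pde4a, -0.59 for Pde4d and 0.50 for Pde3b, and Pde2a had an edgeR adjusted p of 0.0662. With all 6 high-marker libraries left out at once, 3 members passed again beside 5.94% of all genes: Pde4d (log2 -0.65, edgeR adjusted p = 0.0246), Pde4a (log2 -0.42, edgeR adjusted p = 0.0366) and Pde2a (log2 0.39, edgeR adjusted p = 0.0349), while Pde3b did not (log2 0.57, edgeR adjusted p = 0.169). Of the fibroblast markers, 5 of 9 were higher in RV PAB-F, as were 2 of 8 endothelial markers, with median log2 fold changes of 1.33 and 0.67, and the endothelial share was 0.0897% to 0.205% against 0.0654% to 0.111% in RV Sham-F. Their part in the change of Pde2a was not tested. Between PAB at failure and PAB in hypertrophy, the RV response differed for 0 of 10 members, beside 0% of all genes, with 0 at an unadjusted p under 0.05 in edgeR and 0 passing in DESeq2.

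**Figure D5:**
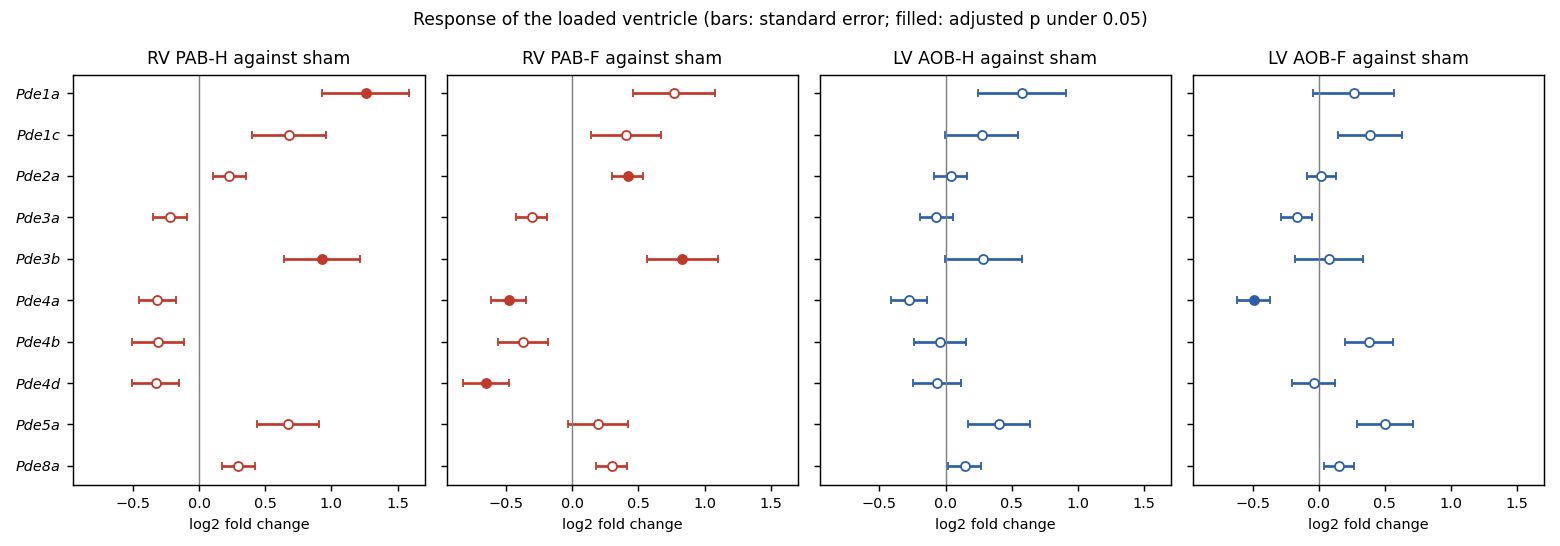
Log2 fold change against sham, with standard error, of each gene in the loaded ventricle: RV PAB-H and RV PAB-F (red), LV AOB-H and LV AOB-F (blue). Filled points have an adjusted p under 0.05, and they are Pde1a and Pde3b in RV PAB-H, Pde2a, Pde3b, Pde4a and Pde4d in RV PAB-F, and Pde4a in LV AOB-F.

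Load on the LV was followed by a call for a single member. In LV AOB-F, 1 of 10 members differed from LV Sham-F, beside 12.9% of all genes. Pde4a ranged from 859 to 1820 with a median of 1114 in LV AOB-F, and from 1156 to 2561 with a median of 1705 in LV Sham-F. The groups overlapped, with 4 of 7 failing libraries below all sham libraries, and the level was 0.712 times that of sham (log2 -0.49, SE 0.12, edgeR adjusted p = 0.00561). The call held without each library in turn, and was lost in a fit to these groups alone (edgeR adjusted p = 0.13), where 15 genes in all, or 0.133%, were called. Of the cardiomyocyte markers, 1 of 9 was lower in LV AOB-F, and their summed share was 4.82% to 10.1% against 7.74% to 10.7% in LV Sham-F, while 3 of 8 macrophage markers (median log2 0.93) and 2 of 8 endothelial markers (0.47) were higher, as were 1 of 9 fibroblast and 1 of 8 mural markers. Over the 82 libraries with group means taken out, Pde4a went with the cardiomyocyte marker score at r = 0.66, and against the macrophage score at r = -0.66 and the fibroblast score at r = -0.58. The part of these cells in the call was not tested.

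Pde4b in LV AOB-F fell into separate levels, with 506, 450, 544 and 298 normalized counts in replicates 1 to 4 and 1020, 1004 and 1148 in replicates 5 to 7, against 400.0 to 706 in LV Sham-F (log2 0.38, SE 0.18, edgeR adjusted p = 0.146). The endothelial marker share was 0.196% to 0.292% in replicates 5 to 7 and 0.348% to 0.413% in replicates 1 to 4, and its part was not tested. By the labels replicates 1 to 4 were males and replicates 5 to 7 females, so the levels of Pde4b split by sex.

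The same split by sex, seen after the values were known and not tested, was found for Pde4b and Pde4d in other groups of the F stage. In LV Sham-F, Pde4b was at 556 to 706 normalized counts in 5 females and 400.0 to 542 in 4 males, and Pde4d at 610.0 to 818 and 441 to 536. In LV PAB-F, Pde4b was at 821 and 912 in the 2 females and 384 to 606 in 4 males. In LV AOB-F, Pde4d was at 667 to 1077 in females and 389 to 451 in males. The mean of females was the higher in all 6 groups at the F stage for both genes, without overlap in 4 groups for Pde4b and 5 for Pde4d. Over all 12 groups of both stages it was the higher in 11 for both genes, without overlap in 6 for each. The RV and LV groups of a condition held the same animals, and Pde4b and Pde4d moved together, so these counts are not of independent groups. How many of all genes split in this way was not counted. At the H stage, Pde4b in RV AOB-H was at 1030 to 1285 in females and 968 to 980 in males. The exception was LV Sham-H, where the mean of females was the lower, 711 against 980.3 for Pde4b and 847 against 1051 for Pde4d. LV Sham-H replicates 4, 5 and 6, low in Pde3a and Pde4b, were 3 of the 4 females of that group. RV PAB-F held 2 females among 6 animals and RV Sham-F 5 among 9. In RV Sham-F, Pde3b was at 58.3 to 67.2 normalized counts in males and 18.4 to 44.6 in females, and Pde1a at 54.9 to 84.4 and 19.5 to 49.2. For Pde3b the mean of females was the higher in 0 of 6 groups at the F stage. With sex as a covariate the log2 fold change in RV PAB-F was -0.57 for Pde4d (edgeR adjusted p = 0.00547) and 0.76 for Pde3b (edgeR adjusted p = 0.0387). In RV PAB-H that fit gave 0.80 for Pde3b (edgeR adjusted p = 0.0755).

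The remaining members of LV AOB-F did not pass. Pde5a, the cGMP-specific enzyme, was 115 ± 36.3 in LV AOB-F and 81.4 ± 25.2 in LV Sham-F (log2 0.50, SE 0.21, edgeR adjusted p = 0.102). It passed in the fit without the high-marker libraries (edgeR adjusted p = 0.0493), beside 15.4% of all genes. None of those libraries was of LV AOB-F or LV Sham-F, so the counts compared were the same and only the fit shared with other groups changed. Pde2a and Pde4d differed from sham by 0.02 (95% interval -0.20 to 0.24) and -0.04 (-0.36 to 0.28) on the log2 scale.

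In LV AOB-H, 0 of 10 members differed from LV Sham-H, beside 0.0167% of all genes, with 1 member, Pde4a, at an unadjusted p under 0.05 in edgeR and 0 passing in DESeq2. Pde4a was 1536 ± 278 against 1860 ± 108 (log2 -0.27, SE 0.14, edgeR adjusted p = 0.245), with 4 of 6 libraries below all sham libraries. Pde4a thus had a lower mean than sham in each of the 4 comparisons of a loaded ventricle, with log2 fold changes of -0.31, -0.48, -0.27 and -0.49 in RV PAB-H, RV PAB-F, LV AOB-H and LV AOB-F, and passed in both failing groups. Its mean was also below sham in the 4 comparisons of the ventricle away from the band, by log2 differences of -0.12 in LV PAB-H, -0.10 in RV AOB-H, -0.19 in LV PAB-F and -0.19 in RV AOB-F, none of which passed.

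The ventricle away from the band showed no call. Members passing were 0 of 10 in LV PAB-H, beside 0% of all genes, 0 in RV AOB-H, beside 0%, 0 in LV PAB-F, beside 0%, and 0 in RV AOB-F, beside 0.0669%. No member had an unadjusted p under 0.05 in edgeR in these 4 comparisons, and 0 passed in DESeq2. For the members called in RV PAB-F, the log2 fold changes in LV PAB-F were -0.12 for Pde2a (95% interval -0.35 to 0.12), 0.20 for Pde3b (-0.32 to 0.72), -0.19 for Pde4a (-0.44 to 0.07) and -0.06 for Pde4d (-0.40 to 0.28).

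The difference between the RV and the LV response to PAB at failure passed for 0 of 10 members, beside 0.351% of all genes, with 2 at an unadjusted p under 0.05 in edgeR and 0 passing in DESeq2. With the animal as a block, 2 passed, beside 2.92% of all genes: Pde2a with a difference of 0.54 (edgeR adjusted p = 0.0126) and Pde4d with -0.57 (edgeR adjusted p = 0.0412), where all 6 PAB-F animals had lower Pde2a in RV than in LV but by a smaller log2 ratio, -0.52 ± 0.32 (SD, n = 6), than the 9 Sham-F animals. The difference between the LV and the RV response to AOB at failure passed for 0 of 10, beside 0% of all genes, with 1 at an unadjusted p under 0.05 in edgeR and 0 passing in DESeq2.

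Across libraries Pde1a, Pde3b and Pde5a went together, and Pde1c less closely. With group means taken out, Pde3b and Pde5a had r = 0.72, Pde1a and Pde5a r = 0.67, and Pde1a and Pde3b r = 0.60 over 82 libraries, and each went with the fibroblast marker score, at r = 0.76 for Pde3b, 0.72 for Pde5a and 0.68 for Pde1a. Each went with the other scores as well. For Pde3b, Pde5a and Pde1a in turn, r was 0.62, 0.71 and 0.51 with the endothelial score and 0.67, 0.69 and 0.49 with the mural score. With the macrophage score it was 0.61, 0.56 and 0.47. Pde1c had r = 0.42 with Pde1a, 0.34 with Pde3b, 0.44 with Pde5a and 0.35 with the fibroblast score. Pde3a and Pde4a went with the cardiomyocyte marker score at r = 0.66 each. The genes most like each member over all 82 libraries, by Pearson's r of log2 CPM, were Arhgef15, Agrn and Thbd for Pde2a (r = 0.94 each), Mylk3, Kcnd2 and Kcnj3 for Pde3a (r = 0.92 each), and Gata5, Slc37a1 and Gpr157 for Pde4a (r = 0.87 to 0.84). Pde4b was most like Tfpi, Meis2 and Dclre1a (r = 0.91 each), Pde4d like Erbb4, Inpp4b and Fam49a (r = 0.92 to 0.90), and Pde8a like Slc28a2, RGD1308428 and Adcy4 (r = 0.86 to 0.84). Among the low members, Casp12 and Anxa1 were among the genes most like Pde1a (r = 0.79 and 0.76), with Col8a1, C1s and Dpysl3 most like Pde3b (r = 0.80 to 0.79), Acsl5, Wipf1 and Slc44a1 most like Pde5a (r = 0.81 to 0.77), and Ston1, Rasgrf2 and Kcns3 most like Pde1c (r = 0.70 to 0.68).

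The rest of the pathway was read from lists of 13 other phosphodiesterases (11 tested), 18 cyclases (15 tested), 17 effectors (13 tested) and 12 anchoring proteins and exporters (12 tested). Of the other phosphodiesterases, Pde7b, a cAMP-specific enzyme, was the highest with a mean of 19.4 FPKM, followed by Pde4c with 8.40 FPKM.

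In RV PAB-H, where 3.91% of all genes were higher, 2 of 15 cyclases and 1 of 13 effectors were higher than in sham and none lower: Adcy7 (log2 1.52, edgeR adjusted p = 0.0141), an adenylyl cyclase, Gucy1b3 (log2 0.91, edgeR adjusted p = 0.018), a subunit of the nitric oxide receptor, and Rapgef3 (log2 0.93, edgeR adjusted p = 0.0237), the cAMP sensor Epac1. In RV PAB-F, where 7.66% of all genes were higher, 2 other phosphodiesterases, 2 cyclases and 2 effectors were higher and none lower. They were Pde4c (log2 0.96), Pde10a (0.86), Adcy7 (1.88), Adcy2 (1.27), Hcn2 (0.82), a pacemaker channel gated by cAMP, and Rapgef3 (0.69). These list genes of RV PAB-H and RV PAB-F are given only with the high-marker libraries in the fit. Without those libraries, 0.465% of all genes were called in RV PAB-H and 5.94% in RV PAB-F. The part of other cells in these calls was not tested. In LV AOB-F, where 4.35% of all genes were lower, 4 cyclases were lower, among them Adcy5 (log2 -0.35, edgeR adjusted p = 0.0147) and Adcy6 (log2 -0.43, edgeR adjusted p = 0.037), the main adenylyl cyclases of cardiomyocytes, with Adcy1 (-0.69) and Gucy2c (-1.20). The anchoring proteins Akap12 (log2 0.89) and Akap13 (0.60) were higher there, as were 8.54% of all genes. In LV AOB-H no gene of these lists passed.

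Between RV and LV in Sham-F, 35.6% of all genes were higher in RV and 38.6% lower, and the counts of the lists are to be read beside these shares. The marker lists of other cells also lay lower in RV Sham-F. Their median log2 differences were -1.49 for endothelial, -1.04 for macrophage, -0.94 for mural and -0.79 for fibroblast markers. The part of other cells in the differences of the list genes was not tested. Of 12 anchoring proteins and exporters, 8 were higher in RV and none lower, with Akap9 (log2 2.02), Akap11 (1.80), Akap6 (1.44) and Akap10 (0.66) the furthest apart. Akap6 encodes mAKAP and Akap9 a Golgi and centrosomal anchor, both of which bind protein kinase A together with Pde4d. Of the 15 cyclases tested, 7 were lower in RV, among them Npr1 (log2 -1.957), the natriuretic peptide receptor that makes cGMP, with Adcy7 (-1.56), Adcy4 (-1.55) and Adcy3 (-1.40), and 1 was higher. Of the 13 effectors, 5 were higher and 3 lower in RV: Prkg1 (log2 1.01) and Prkar2a (0.92) were higher, and Rapgef3 (-2.15) and Hcn2 (-1.18) were lower. Among the 11 other phosphodiesterases, 4 were higher and 5 lower, with Pde4c (log2 -2.44), Pde6a (1.98), Pde9a (-1.36) and Pde8b (-1.28) furthest from 0. In Sham-H, Akap9 (log2 0.93) and Prkg1 (0.56) were higher in RV, and Npr1 (-1.18), Adcy4 (-0.94), Rapgef3 (-1.34), Pde4c (-1.13) and Pde9a (-0.91) lower, with Pde6b (1.66) higher at a mean of 6.48 against 1.91 normalized counts.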

How the data were processed

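Cardiomyocyte RNA of both ventricles of 41 rats was sequenced as 82 paired-end libraries. The authors trimmed the reads with Trim Galore, aligned them with STAR to Rnor6.0 and counted reads per gene with featureCounts, and deposited raw counts, counts normalized by DESeq2 1.28.1 (a signal value) and FPKM. The strand setting was not given in the sources used here. Raw counts entered all tests. FPKM values, made by the authors, were used for levels between genes, and the authors' normalized signal was not used. The members and lists were chosen with earlier results of these data known.

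Tests were run with edgeR 4.0.16 in R 4.3.3: a quasi-likelihood fit with 12 group means over 82 libraries, TMM factors and filterByExpr (11954 of 17337 genes, common coefficient of variation 0.244), with Benjamini-Hochberg adjustment over all genes tested. Totals per library, from 6675287 to 19665439 counts with a median of 13074486, set the precision, and the members with medians under 100 counts were measured least precisely. Normalized counts were raw counts over the TMM effective library size times its mean, and log2 CPM used a prior count of 2. The marker score is the mean log2 CPM of a list. Standard errors were derived from the F statistic, and intervals are 95% normal intervals from them. Replicates are separate animals per the labels.

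RV and LV libraries with the same number came from the same animal. Their deviations from the group means correlated with a median r of 0.186 to 0.297 by condition, against -0.0686 to -0.0142 between different animals, so the animal block was read as a pairing. Alternatives were size factors and the Wald test of DESeq2 1.42.0, no filter, the study's criteria (absolute log2 fold change over 1, p at most 0.01, mean over 50), a fit to the groups compared, sex as a covariate, each library left out, and blocks. On simulated counts of the RV PAB-F comparison, 176 of 200 genes changed by 1 on the log2 scale were recovered with 6 other calls among 11853 genes. Members were always named. Of the other lists, up to 4 called genes with the largest change per list were named in the loaded ventricles and between sham ventricles. For each member, the 3 genes of highest Pearson's r were named. Not every result of these rules is reported here.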

Additional observations from a re-analysis of the deposited data

Results flagged for a closer look

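Of 120 combinations of a member and a group, 18 held a library far from the rest of its group by Dixon's criterion, where chance gives about 1 in 20. LV AOB-H replicate 6 held 5 of them, with 2685 normalized counts of Pde2a against 1413 to 1743 in the rest of its group, 3521 of Pde3a against 5088 to 5711, 117 of Pde3b against 46.2 to 64.9, 981 of Pde4a against 1572 to 1718, and 250.02 of Pde5a against 72.9 to 108. The RV library of the same animal, RV AOB-H replicate 6, had 1594 of Pde2a against 982 to 1159 and 508 of Pde8a against 283 to 310.1.

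LV PAB-H replicate 2 was low, with 3275 of Pde3a against 5122 to 5807, 379.6 of Pde4b against 761 to 1103, and 557 of Pde4d against 962 to 1141. Pde4a was at 1101 in RV PAB-H replicate 2. RV PAB-F replicate 1 had 175 of Pde3b, and RV PAB-F replicate 6 had 1475 of Pde4b. Among sham libraries, Pde1c was at 28.3 and Pde5a at 47.7 in LV Sham-H replicates 4 and 1, Pde4d at 1012 in RV Sham-H replicate 2, and Pde2a at 1686 in LV Sham-F replicate 5. Pde8a was at 384 in LV PAB-F replicate 4.

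The RV to LV difference was not the same in Sham-F and Sham-H for Pde2a (difference of -0.52 on the log2 scale), Pde4b (0.77) and Pde4d (0.71), each past the threshold in edgeR's test of the difference itself.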

How the results depend on the processing

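No member changed direction past the threshold under any setting. The study's criteria, which ask for more than a doubling, left 0 members in RV against LV of Sham-H (338 of all genes called) and 3 in Sham-F (3306). In banded hearts the criteria left 3 calls, summed over PAB-H, PAB-F, AOB-H and AOB-F, against 16 in the main fit. Calls over all genes, summed likewise, were 5142 against 16298. The criteria left 1 member for RV PAB-H (217 genes called) and 0 for RV PAB-F (227) and LV AOB-F (145). They also left 0 for LV Sham-F against Sham-H (962) and the difference between the shams (1094). A fit to the groups compared gave 7 members in RV PAB-F, where calls over all genes went from 1325 to 2726. It gave 6 in RV PAB-H (538 to 1642 over all genes), 2 in RV against LV of Sham-H (2510 to 1499) and none (0) in LV AOB-F (1541 to 15). RV PAB-H fell to 1 member with DESeq2's size factors (457 of all genes called), with no filter (346) and with sex as a covariate (326). The high-marker libraries left out, an alternative chosen after seeing the data, gave 2 in LV AOB-F (1857 of all genes called), 0 in RV PAB-H (56) and 5 in LV Sham-F against Sham-H (7158). Of these comparisons, only that of RV PAB-H lost libraries of its own. In the LV comparisons only the fit shared with other groups changed.

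Leaving out 1 library at a time gave 1 to 4 members in RV against LV of Sham-H and 6 to 7 in Sham-F. In banded hearts it gave 13 to 17 calls, summed over PAB-H, PAB-F, AOB-H and AOB-F. It gave 0 to 4 members in RV PAB-H, 0 to 6 in RV PAB-F and 1 to 2 in LV AOB-F. For LV Sham-F against Sham-H it gave 3 to 4, and for the difference between the shams 3 in each fit. Calls over all genes in these fits are not given here. Counts of 0 stayed at 0. RV PAB-H had 0 members without replicate 2, and RV PAB-F 0 without replicate 1.

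The animal as a block gave 2 members in the PAB-F response in RV minus LV, and changed no call beyond those given. Between treatment groups, libraries share a replicate number but no animal. The labels number males before females in each group, so this number goes in part with sex. The replicate number as a block gave 0 in LV AOB-F, where calls over all genes went from 1541 to 1, and 3 members in RV PAB-H, where they went from 538 to 1256. These were Pde4a, Pde4b and Pde4d, and both members of the main result, Pde1a and Pde3b, were lost. In RV PAB-F it lost Pde3b (edgeR adjusted p = 0.0889) and Pde4a (0.0516) and gained Pde4b, and in LV Sham-F against Sham-H it lost Pde2a (0.128) and Pde4b (0.0501) and gained Pde3b. The cause of these changes was not tested. Low counts limit Pde1a, Pde1c, Pde3b and Pde5a most.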
